A study of Papio anubis with 8 samples.

Results

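The genes described here are 10 prostaglandin synthases, receptors and breakdown enzymes, read in hippocampus from fetal baboons of the species Papio anubis. They were taken from an expression table of 37053 genes by their symbols, and each of the 10 had a row. The study compared fetuses at 0.9 of term from mothers of differing adiposity and leptin level, but no label gives the maternal group of any of the 8 libraries. The libraries, named AMB3 to AMB10 after their titles, are therefore described side by side and no group is compared with another. All come from hippocampal total RNA prepared with a strand-specific kit, and the labels do not say whether each library is a different fetus. The genes were selected on a pathway in which the CPM of PTGS2 in these libraries was already known, so all levels are given as a description, with no test of a difference.

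Prostaglandins are short-lived lipid signals made from arachidonate, a fatty acid cut out of membrane lipids. The cyclooxygenases PTGS1 and PTGS2 convert it to prostaglandin H2, and terminal synthases then make the individual products: PTGES, PTGES2 and PTGES3 make prostaglandin E2 and PTGDS makes prostaglandin D2. Prostaglandin E2 acts through G protein-coupled receptors, among them PTGER2 and PTGER4, which raise cyclic AMP, and PTGER3, which mostly lowers it, and the dehydrogenase HPGD inactivates it. In brain, PTGS2 is known as an enzyme of excitatory neurons that synaptic activity and inflammation induce, and PTGDS as a product of leptomeninges, choroid plexus and oligodendrocytes.

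On assembly Panubis1.0, 4 of the 10 genes lie on chromosome 13 within 14.5 Mb. These are PTGS1 (92063519 to 92088243, plus strand), PTGES2 (97614050 to 97622037, minus strand), PTGES (99337038 to 99379355, minus strand) and PTGDS (106555779 to 106559890, minus strand). Chromosome 1 holds PTGER3 (69191105 to 69392561, minus strand) and PTGS2 (175285586 to 175294240, plus strand). HPGD is on chromosome 3 (15121539 to 15153005, plus strand), PTGER4 on chromosome 5 (39492716 to 39506549, plus strand), PTGER2 on chromosome 7 (54182249 to 54196553, minus strand) and PTGES3 on chromosome 9 (51313691 to 51323000, minus strand).

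Libraries held between 40404878 (AMB9) and 71648654 (AMB10) counts. Each level is in CPM (counts per 1000000 after scaling of the libraries), with an exact 95% Poisson interval that covers counting error only. CPM is not corrected for transcript length, so levels are compared between libraries and not between genes. Marker genes of brain regions set some libraries apart. For 11 genes of the dentate gyrus and CA fields, CPM summed to 1095 in AMB8, while AMB10 reached 1081, AMB3 reached 698 and the remaining 5 libraries lay at 332 to 465. For 10 genes of neocortical layers the order turned round, with sums of 558 (AMB8), 584 (AMB10) and 684 CPM (AMB3) and of 1191 to 1464 CPM elsewhere. Several ranges and ratios of the prostaglandin genes that rest on these 3 libraries are given with and without them.

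Of the 10 genes, 9 had enough counts to pass the filter used on the whole table, which 16874 genes passed, and PTGER2 did not. The spread of each gene is expressed as its range, which is log2 CPM in the top library minus log2 CPM in the bottom library. It was at least 1, or 2-fold, in 5 of the 9 genes (PTGS2, PTGER4, PTGDS, PTGS1 and PTGER3), against 36.1% of all genes that passed. It was at least 2 in 3 genes (PTGS2, PTGER4 and PTGDS), against 9.0% of all genes that passed. The median range was 1.44 over the 9 genes and 0.77 over all genes. These counts and the median include PTGS2, whose level was known when the genes were chosen. The comparison with all genes was not matched for level. Counting error alone widens the range of genes with few counts, such as PTGER4 with 24 to 117. Without AMB3, AMB8 and AMB10, the range reached 1 in 3 of the 9 genes, against 20.3% of all genes, and 2 in 1 of them, against 3.58% of all genes. Just above a range of 1 stood PTGER3 with 1.44, and just below it HPGD with 0.84.

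**Figure D1:**
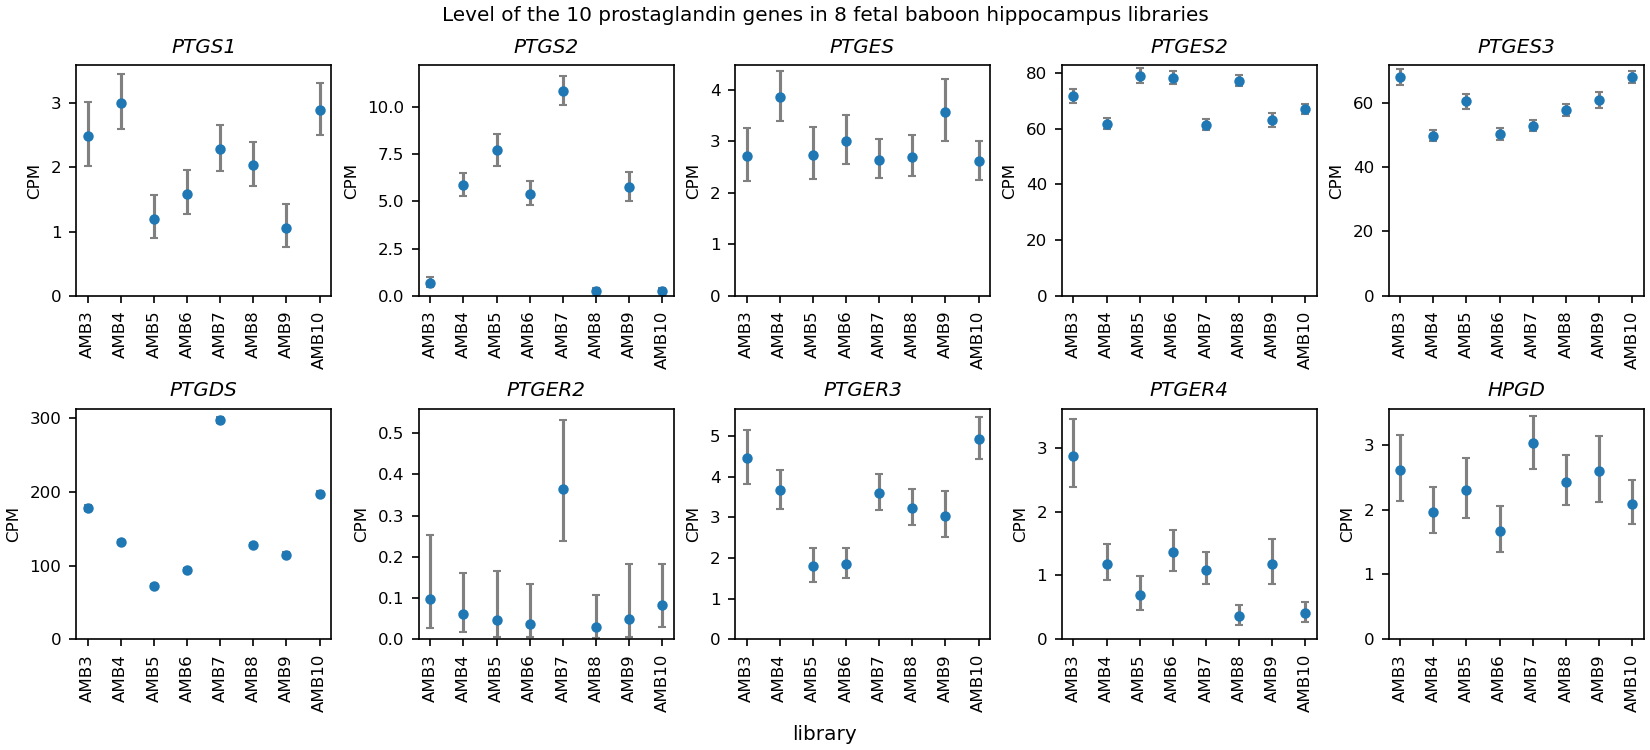
Level of each of the 10 genes in the 8 libraries, as CPM on a linear axis that starts at 0, with 1 point per library. Bars are exact 95% Poisson intervals and cover counting error only. PTGS2 is near 0 in AMB3, AMB8 and AMB10, whereas PTGES2 stays between 61.5 and 79.0 CPM.

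**Figure D2:**
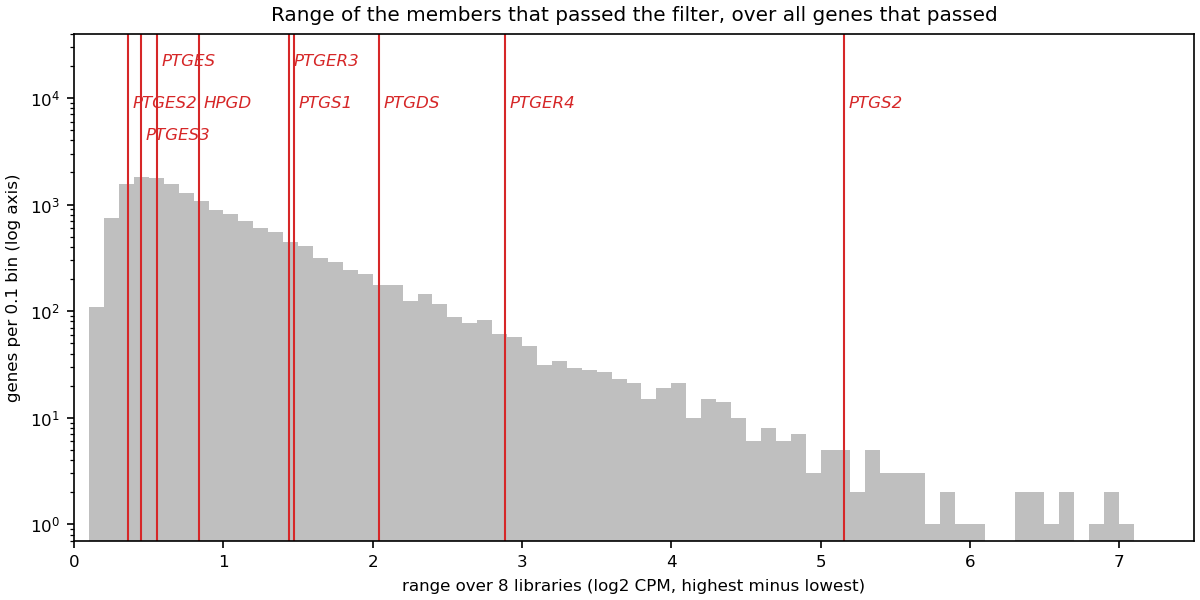
Range over the 8 libraries (log2 CPM, highest minus lowest) of the 9 genes that passed the filter (red lines), over a histogram of all 16874 genes that passed (grey, log axis). PTGS2 lies far to the right at 5.16, and PTGES2, PTGES3 and PTGES lie at 0.36 to 0.56.

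The inducible cyclooxygenase PTGS2 varied more than any other of these genes. Its level was 10.8 CPM in AMB7 (774 counts), 7.69 in AMB5 (334 counts), 5.86 in AMB4 (375 counts), 5.73 in AMB9 (228 counts) and 5.40 in AMB6 (293 counts). It was 0.689 CPM in AMB3 (28 counts, interval 0.458 to 0.996), 0.279 in AMB10 (20 counts, interval 0.170 to 0.431) and 0.269 in AMB8 (18 counts, interval 0.159 to 0.425). The libraries therefore fell apart into 5 with several CPM and 3 below 1 CPM, with no value between. The ratio of highest to lowest was 40.3 and the log2 range 5.16, larger than that of 99.8% of the genes that passed. The widest step lay between AMB3 and AMB6, at 2.91 on the log2 scale. In order of level, the intervals of AMB8 and AMB10 overlapped, as did those of AMB6, AMB9 and AMB4 from neighbour to neighbour, whereas the other neighbouring libraries were separate. Without AMB3, AMB8 and AMB10 the log2 range of PTGS2 was 0.99, and without AMB8 and AMB10 alone it was 3.91.

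PTGS1, the constitutive cyclooxygenase, had another order of libraries. It stood at 3.0 CPM in AMB4, 2.89 in AMB10, 2.49 in AMB3, 2.28 in AMB7, 2.03 in AMB8, 1.59 in AMB6, 1.20 in AMB5 and 1.06 in AMB9, from 42 to 207 counts. The intervals of all 7 neighbouring pairs in this order overlapped, but those of the highest library (2.59 to 3.45) and the lowest (0.761 to 1.43) did not. AMB10 was thus among the highest libraries for PTGS1 and among the lowest for PTGS2. The ratio of PTGS2 to PTGS1 counts was 6.42 in AMB5, 5.43 in AMB9, 4.75 in AMB7, 3.41 in AMB6 and 1.95 in AMB4, and 0.277 in AMB3, 0.132 in AMB8 and 0.0966 in AMB10. The value of such a ratio depends on the lengths of both transcripts, but its 66.5-fold change over the libraries does not. Without AMB3, AMB8 and AMB10 the change was 3.29-fold.

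The genes whose profile lay closest to PTGS2 were sought among all genes that passed the filter and carried a symbol. Closeness was the root mean square difference over the 8 libraries between log2 CPM profiles, each centred on its median. Among the 5 closest were PCSK1 (0.61), MEF2C (0.64), RGS6 (0.64) and IL1RAPL2 (0.65). MEF2C, a transcription factor of neurons, stood at 1199 to 1779 CPM in AMB4, AMB5, AMB6, AMB7 and AMB9, at 326 in AMB3, 139.6 in AMB10 and 123 in AMB8. PCSK1, a protease that cuts prohormones, stood at 165 to 216 CPM in the libraries AMB4, AMB5, AMB6, AMB7 and AMB9, against 46.0 CPM in AMB3, 19.1 CPM in AMB10 and 11.9 CPM in AMB8. The log2 ranges of these 4 genes ran from 3.85 to 5.09, against 5.16 for PTGS2. Their likeness to PTGS2 in range and order follows from choosing them by closeness to its profile.

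In most, but not all, genes of neocortical layers AMB3, AMB8 and AMB10 were the 3 lowest libraries, as they were for PTGS2. This order was counted after values had been seen, and it held for 7 of the 9 neocortical genes that passed the filter, against 9.87% of all genes. CUX2, a transcription factor of upper layers, ranged from 12 CPM in AMB8 to 277 in AMB7. RORB, of middle layers, ranged from 17.4 CPM in AMB8 to 268 in AMB7. LMO4 went another way, at 231 CPM in AMB7, its lowest library, and 277 CPM in AMB8. The sum of the list was highest in AMB7 and lowest in AMB8, AMB10 and AMB3. FIBCD1, from the list of the dentate gyrus and CA fields, stood at 399 CPM in AMB8 and 366 in AMB10, and at 9.0 in AMB5. Other genes of that list went another way. MEIS2 was lowest in AMB8, followed by AMB10 with 47.2 CPM, and highest in AMB7 with 99.3 CPM. WFS1 was lower in AMB8 than in AMB7, where it had 82.7 CPM. C1QL3 had 208 CPM in AMB8 but 224 CPM in AMB5. The part of these neuron types in the PTGS2 level was not tested. In bulk RNA, fewer cells of a type and less RNA per cell cannot be told apart.

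**Figure D3:**
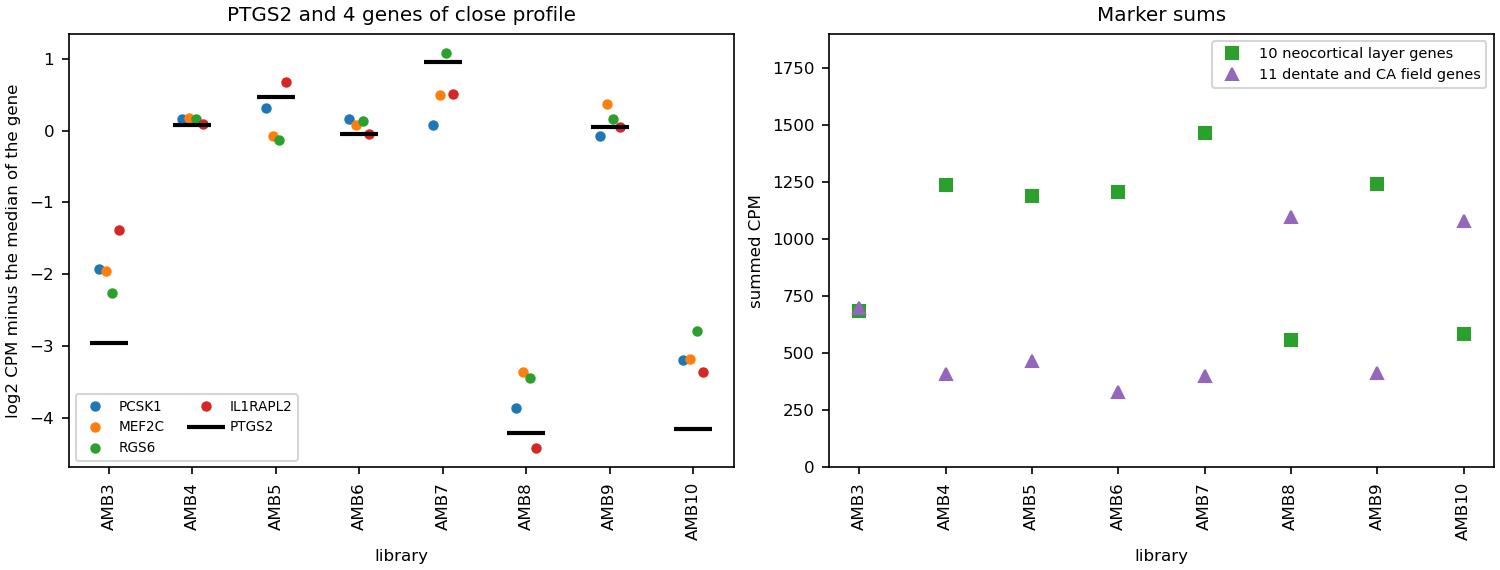
Left, log2 CPM minus the median of the gene in each library for PTGS2 (black bars) and 4 of the 5 genes of closest profile (points). Right, summed CPM of 10 neocortical layer genes and 11 dentate and CA field genes in the same libraries. AMB3, AMB8 and AMB10 hold the lowest PTGS2 values, the lowest neocortical sums and the highest dentate and CA sums.

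Regulators known to induce or restrain PTGS2 had ranges near those of all genes. Of 17 listed genes with a row, 16 passed the filter, the range reached 1 in 5, against 36.1% of all genes, and its median was 0.69, against 0.77. MAPK14, the p38 kinase that stabilizes PTGS2 mRNA, had 99.5 CPM in AMB3, its lowest library, and 142 CPM in AMB7, its highest. ELAVL1, an RNA-binding protein that stabilizes the same mRNA, ranged from 109 to 118 CPM. JUN, a subunit of the AP-1 transcription factor, was at 55.8 CPM in AMB10 and 91.1 in AMB3. ZFP36, which destabilizes such mRNAs, had the widest range of the list, from 1.18 CPM in AMB9 to 3.99 in AMB8.

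Activity-induced genes, among which PTGS2 is often counted, were divided. In 11 of 21, among them EGR1, EGR3 and NPAS4, AMB3, AMB8 and AMB10 were the 3 lowest libraries, against 9.87% of all genes. In the other 10 they were not. Like that of the neocortical genes, this count was made after values had been seen. Among the other 10, BDNF, NPTX2, NR4A3 and PLK2 even had AMB8 as their highest library. NPTX2 reached 97.2 CPM there, against 31.5 CPM in AMB7, its lowest library. PLK2 reached 291 CPM in AMB8 and was lowest in AMB6, with 183 CPM. The range reached 1 in 16 of the 21 genes, against 36.1% of all genes, and 2 in 6, against 9.0%. EGR1, an early transcription factor, ranged from 53.4 CPM in AMB3 to 139.7 in AMB5, and EGR3 from 53.8 in AMB3 to 127 in AMB6. NPAS4, which neuronal calcium entry induces, had 0.586 CPM in AMB10, followed by AMB8 with 0.761 CPM and AMB3 with 1.33 CPM, and 1.55 to 5.66 CPM in the remaining libraries. HOMER1, a scaffold of the postsynapse, ranged from 128 to 154 CPM and was highest in AMB10. The part of neuronal activity in the PTGS2 level was not tested.

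The 3 prostaglandin E synthases varied least. PTGES, the inducible microsomal enzyme, was at 3.86 CPM in AMB4, 3.57 in AMB9, 3.0 in AMB6, 2.74 in AMB5, 2.71 in AMB3, 2.70 in AMB8, 2.64 in AMB7 and 2.61 in AMB10. AMB4 and AMB9 stood somewhat above the rest, and all 7 neighbouring pairs of intervals overlapped. Its log2 range was 0.56 and the ratio of highest to lowest 1.48. In the 3 libraries of lowest PTGS2, PTGES was thus at 2.61 to 2.71 CPM, against 2.64 CPM in AMB7 and 2.74 CPM in AMB5, where PTGS2 was highest. The ratio of PTGES to PTGES2 counts changed by 1.80-fold over the libraries, from 0.0347 in AMB5 to 0.0624 in AMB4.

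PTGES2, a membrane-associated synthase, was at 79.0 CPM in AMB5, 78.3 in AMB6, 77.3 in AMB8, 71.7 in AMB3, 67.1 in AMB10, 63.1 in AMB9, 61.8 in AMB4 and 61.5 in AMB7. Its log2 range of 0.36 was larger than that of 10.2% of genes that passed. With 2511 to 5179 counts the intervals were narrow, and 5 of 7 neighbouring pairs still overlapped. A further predicted gene overlaps PTGES2, and it had at most 4 counts in any library.

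PTGES3, a cochaperone of HSP90 that is also a cytosolic synthase, was at 68.1 CPM in AMB10, 68.0 in AMB3, 60.9 in AMB9, 60.5 in AMB5, 57.8 in AMB8, 52.8 in AMB7, 50.2 in AMB6 and 49.8 in AMB4. Its log2 range was 0.45, or 0.29 without AMB3, AMB8 and AMB10. The level is uncertain, because the table holds 3 further rows described as PTGES3 pseudogenes, among which reads of the same sequence could be divided. LOC103876803 on chromosome 14 (25505465 to 25507082) had 57.5 to 99.7 CPM and LOC110743357 on chromosome 3 (19829100 to 19832090) had 20.9 to 30.0 CPM, and the other copy had at most 2 counts in any library. PTGES3 itself held between 33.1% and 43.6% of the counts of the 4 rows together. Their sum ranged from 135 CPM in AMB4 to 196 in AMB3, a log2 ratio of 0.54, so AMB4 was lowest for the gene and for the sum.

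HSP90 and its other cochaperones had ranges like that of PTGES3. Among 11 genes tested, the range reached 1 in FKBP5 alone, a glucocorticoid-induced chaperone, against 36.1% of all genes. FKBP5 was at 13.5 CPM in AMB3, 19.2 in AMB8 and 18.2 in AMB10, and at 5.06 to 6.04 CPM in the other libraries. Its high libraries were thus those of lowest PTGS2. The median range of the list was 0.50, against 0.77 over all genes. HSP90AB1, the constitutive HSP90, ranged from 1478 to 2123 CPM, and STIP1, which links HSP90 to HSP70, from 150.05 to 183 CPM.

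PTGDS, the prostaglandin D2 synthase of brain, was at 297 CPM in AMB7 (21261 counts), 198 in AMB10 (14181), 178 in AMB3 (7231), 132 in AMB4 (8477), 128 in AMB8 (8600), 115 in AMB9 (4574), 93.5 in AMB6 (5074) and 72.2 in AMB5 (3138). AMB7 stood clear of the others, and counting intervals overlapped in 1 of the 7 neighbouring pairs, AMB8 and AMB4. The ratio of highest to lowest was 4.12 and the log2 range 2.04. The range was 1.46 without AMB7 and 1.67 without AMB5. AMB7 was thus the highest library for PTGS2 and for PTGDS, but AMB10 and AMB3, the next highest for PTGDS, were low for PTGS2.

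PTGDS shared its highest and lowest library with the sum of the leptomeningeal and fibroblast list, but not the whole order. The summed CPM of 11 such genes was 541 in AMB7, 526 in AMB4, 504 in AMB3, 290 in AMB9, 262 in AMB10, 154 in AMB8, 148 in AMB6 and 136 in AMB5. The collagen gene COL1A2 was highest in AMB7 (152 CPM) and lowest in AMB5 (21.2 CPM), as was OGN, a proteoglycan (39.5 and 0.759 CPM). Most other genes of the list differed. COL1A1 and COL3A1 were highest in AMB4 (130 and 141 CPM), and DCN, another proteoglycan, was highest in AMB3 (137 CPM) and lowest in AMB8 (9.11 CPM). AMB4, near the top of the list sum, had a middle level of PTGDS. The summed CPM of 10 genes of myelinating oligodendrocytes was 5161 in AMB10, 4249 in AMB4 and 2887 in AMB8, and 815 to 1963 in the other libraries. MBP, a main protein of myelin, was at 1695 CPM in AMB10 and 509.7 in AMB7. Of 8 choroid plexus genes, the defining TTR reached no more than 2.47 CPM, with 0 counts in AMB5 (an upper limit of 0.0690 CPM), and the list summed to 7.61 to 29.4 CPM. Genes of this list were highest in different libraries. KCNJ13, named here for its values, was at 2.25 CPM in AMB7 and 1.90 CPM in AMB10. CLIC6 was at 4.03 CPM in AMB7 but 0.307 CPM in AMB10, and neither gene passed the filter. KL and OTX2 were highest in AMB3, at 7.95 and 0.640 CPM. The part of these cell types in the PTGDS level was not tested.

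**Figure D4:**
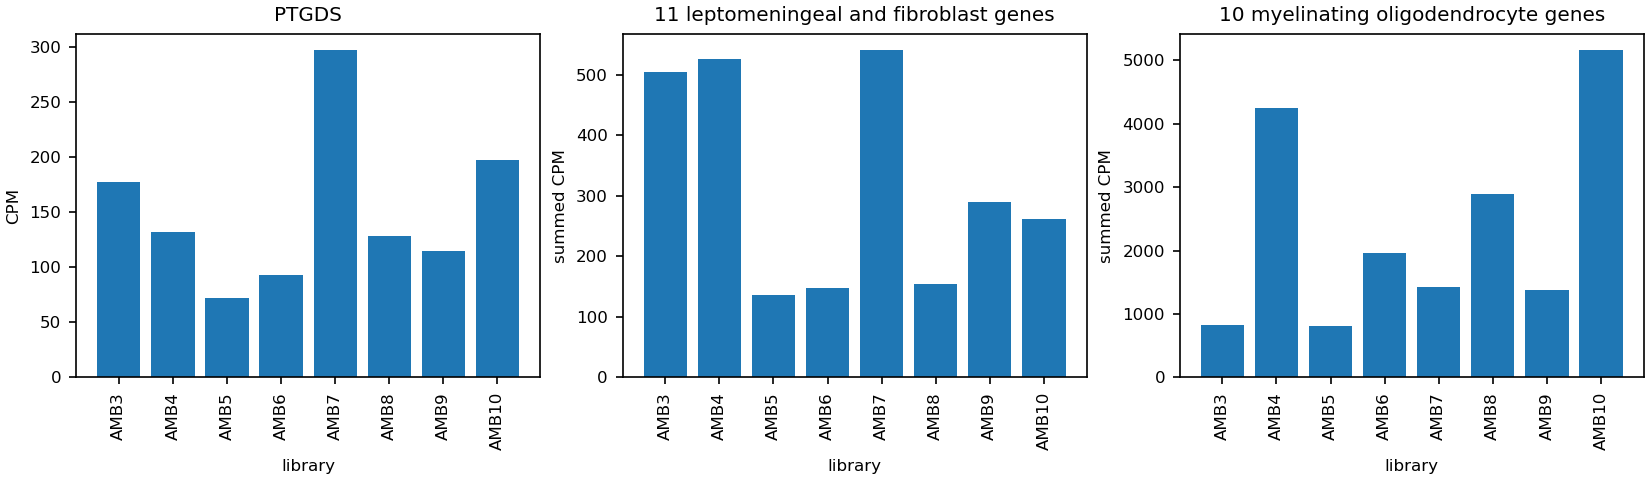
PTGDS level (CPM, left) and the summed CPM of 11 leptomeningeal and fibroblast genes (centre) and of 10 myelinating oligodendrocyte genes (right) in each library. PTGDS and the leptomeningeal sum are both highest in AMB7 and lowest in AMB5, while AMB10 is highest for the oligodendrocyte sum.

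The genes closest in profile to PTGDS were GPX8 (0.27), WFIKKN2 (0.31), C14H2orf92 (0.32), ANGPT2 (0.32) and SNED1 (0.34), by the same root mean square difference. ANGPT2, a ligand that destabilizes vessels, ranged from 3.43 CPM in AMB6 to 8.91 in AMB7. On chromosome 13 the nearest tested genes beside PTGDS were LOC108580400, 410 bases away and highest in AMB3, and LCN12, another lipocalin, at 0.352 to 1.27 CPM and highest in AMB6. Neither had its highest level in AMB7.

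Of the receptors that passed the filter, PTGER4, which couples to cyclic AMP formation, varied more than PTGER3. It stood at 2.88 CPM in AMB3 (117 counts), 1.36 in AMB6 (74), 1.19 in AMB4 (76), 1.18 in AMB9 (47), 1.09 in AMB7 (78), 0.690 in AMB5 (30), 0.405 in AMB10 (29) and 0.358 in AMB8 (24). AMB3 was highest for the receptor although it was low for PTGS2, whereas AMB8 and AMB10 were lowest for both. The ratio of highest to lowest was 8.04 and the log2 range 2.89. The range was 1.83 without AMB3 and 0.95 without AMB3, AMB8 and AMB10. The interval of AMB3 (2.38 to 3.45) lay above that of AMB6 (1.07 to 1.71), and the other 6 neighbouring pairs overlapped.

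The genes closest in profile to PTGER4 were COL6A6 (0.27), NXPH3 (0.31), TRPM8 (0.32), CCDC3 (0.32) and CPLX3 (0.35). All 5 were highest in AMB3, as PTGER4 was, which follows from choosing them by closeness to its profile. CPLX3, a complexin, was at 123 CPM in AMB3, 84.2 in AMB6, 64.1 in AMB4, 62.6 in AMB5, 49.9 in AMB7, 49.6 in AMB9, 20.5 in AMB10 and 20.3 in AMB8. NXPH3, a neurexin ligand, had 80.8 CPM in AMB3, its highest library, and 13.8 CPM in AMB8, its lowest.

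PTGER3, which inhibits cyclic AMP formation, was at 4.93 CPM in AMB10, 4.45 in AMB3, 3.67 in AMB4, 3.60 in AMB7, 3.22 in AMB8, 3.04 in AMB9, 1.84 in AMB6 and 1.80 in AMB5. AMB5 and AMB6 stood below the others, with 78 and 100 counts, and the step from AMB6 to AMB9 was the only neighbouring pair with separate intervals. The log2 range was 1.44, or 1.01 without AMB3, AMB8 and AMB10, and the ratio of highest to lowest 2.74. A pseudogene of HMGB1, LOC101026485, lies inside PTGER3 on the other strand with 117 to 175 CPM, and the labels do not say whether counting used strand. It was highest in AMB5, the lowest library for PTGER3, and lowest in AMB10, the highest for PTGER3. The closest profiles were those of TGFBR3 (0.19), MMP2 (0.20), ZPBP (0.20), TMEM232 (0.21) and SLC8A1 (0.21).

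The ratio of PTGER4 to PTGER3 counts was 0.740 in AMB6, 0.646 in AMB3, 0.388 in AMB9, 0.385 in AMB5, 0.323 in AMB4 and 0.304 in AMB7, and 0.111 in AMB8 and 0.0822 in AMB10. In AMB8 and AMB10 the inhibitory receptor thus took a larger share of the counts of this pair than elsewhere, a 9.0-fold change over all libraries that does not depend on transcript length. Without AMB3, AMB8 and AMB10 the change was 2.44-fold.

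PTGER2, the other receptor that raises cyclic AMP, had few counts in most libraries. It had 26 counts in AMB7 (0.364 CPM, interval 0.238 to 0.533), 6 in AMB10, 4 in AMB3 and AMB4, and 2 in AMB5, AMB6, AMB8 and AMB9. AMB7 was thus set apart, although its interval overlaps the interval of AMB3, which reaches 0.252 CPM. A log2 range of 2.61 for counts this low depends on the constant added before taking logs, and it was 1.02 without AMB7.

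HPGD, the enzyme that begins prostaglandin breakdown, was at 3.02 CPM in AMB7, 2.61 in AMB3, 2.59 in AMB9, 2.43 in AMB8, 2.30 in AMB5, 2.09 in AMB10, 1.97 in AMB4 and 1.68 in AMB6, from 91 to 216 counts. All 7 neighbouring pairs overlapped, and the intervals of AMB7 (2.63 to 3.45) and AMB6 (1.35 to 2.06) did not. Its log2 range was 0.84. AMB7 was the highest library for 4 of the 10 genes (PTGS2, PTGDS, PTGER2 and HPGD). AMB8 was the lowest for 3 (PTGS2, PTGER2 and PTGER4). Both counts include PTGER2, which did not pass the filter. How often these libraries are highest or lowest over all genes was not counted, so neither number is a result about these genes.

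PTGS1 had its closest profiles in ALX4 (0.21), MRO (0.23), MPP7 (0.25), CENPQ (0.25) and COLQ (0.25). Microglia are a known source of PTGS1, and the summed CPM of 9 microglial genes was highest in AMB6 (198) and AMB4 (183), and lowest in AMB8 (100.2). CX3CR1, the fractalkine receptor, ranged from 13.6 CPM in AMB8 to 40.6 in AMB4. The sum of 10 endothelial genes was highest in AMB4 (356) and AMB3 (350.3) and lowest in AMB7 (255). The part of these cells in the PTGS1 level was not tested.

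Other genes of the pathway were read from 5 lists of 51 genes, of which 47 had a row and 35 passed the filter. A log2 range of at least 1 was found in 18 of the 35, or 51.4%, against 36.1% of all genes. The list of lipoxygenase and leukotriene genes gave 8 of these 18, out of 10 tested. The remaining lists gave 3 of 10 (arachidonate release), 3 of 7 (other synthases), 3 of 3 (other receptors) and 1 of 5 (transport and breakdown). The range was at least 2 in 3 of the 35, which is near the 9.0% of all genes. The median range was 1.0. The 3 were PTGIS, PTGFR and ALOX5.

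**Figure D5:**
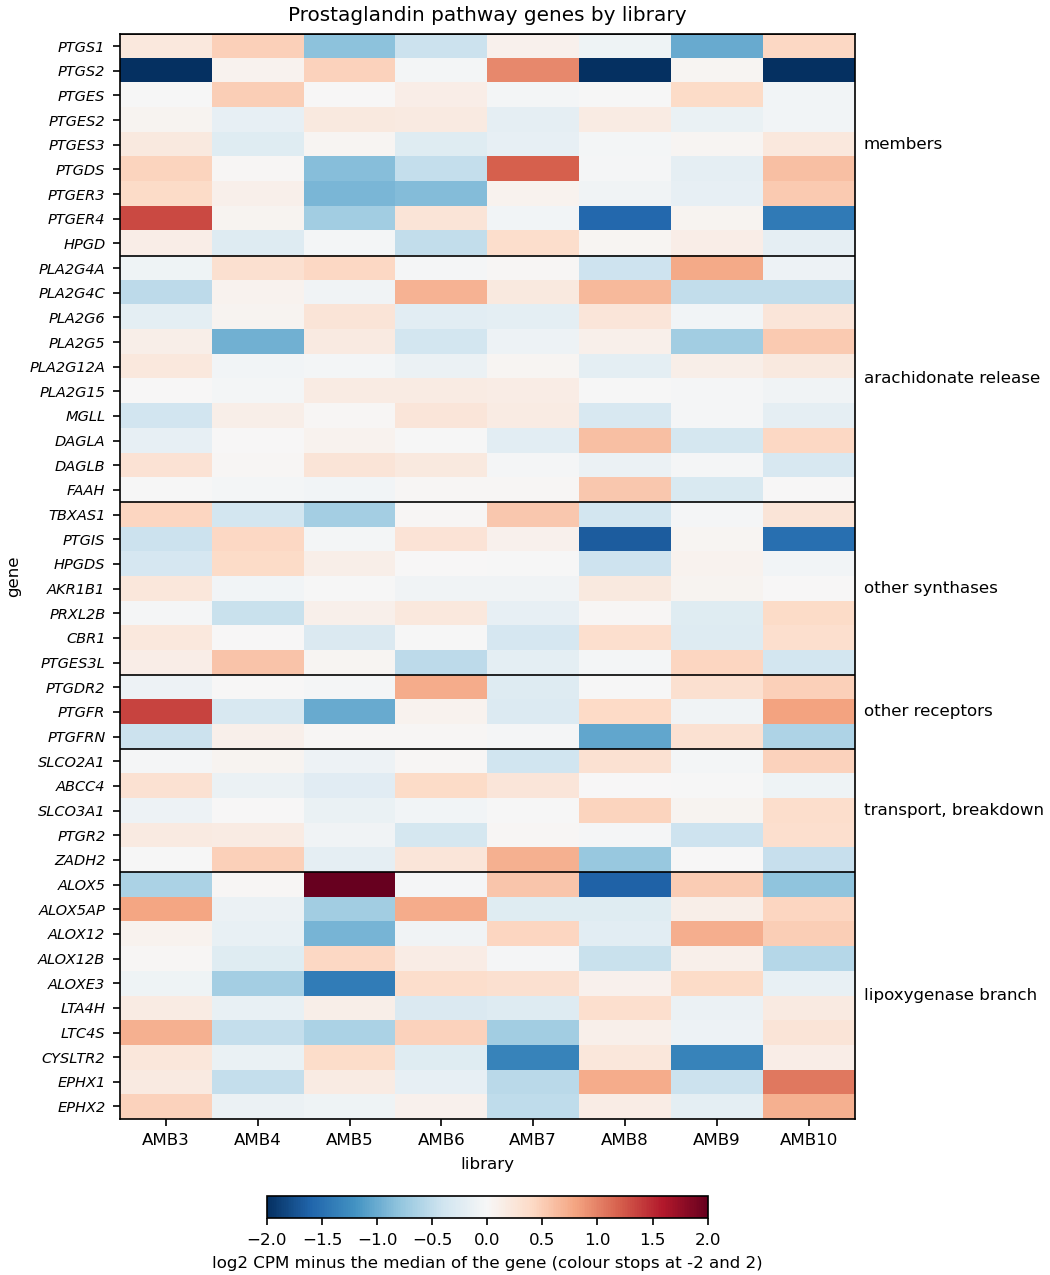
Log2 CPM minus the median of the gene in each library (columns) for the 9 members and 35 other pathway genes that passed the filter (rows). Red is above and blue below the median of the gene, and colours stop at 2 on either side. PTGS2 and PTGIS are both low in AMB8 and AMB10.

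Genes that release arachidonate or its precursors had ranges near those of all genes. Of 10 tested, 3 reached a range of 1, against 36.1% of all genes, and the median was 0.73, against 0.77. MGLL, a lipase that frees arachidonate from an endocannabinoid, ranged from 205 CPM in AMB3 to 315 in AMB6. DAGLA, which makes that endocannabinoid, ranged from 77.2 CPM in AMB9 to 148 in AMB8, and FAAH, a hydrolase of another, from 37.9 to 68.1 CPM in the same libraries. PLA2G5, a secreted phospholipase, had the widest range of the list, from 1.84 CPM in AMB4 to 5.22 in AMB10. PLA2G4A, named here for its place in the genome, is the cytosolic phospholipase that supplies the cyclooxygenases and the nearest tested gene before PTGS2 on chromosome 1, at a distance of 143135 bases. It was at 1.79 CPM in AMB8 and 4.05 in AMB9, with a log2 range of 1.16, and AMB3 and AMB10, its next lowest libraries, held 2.24 and 2.22 CPM against a median of 2.39 CPM.

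Among the other synthases, PTGIS, which makes prostacyclin, was the widest. It was at 10.6 CPM in AMB4, 9.62 in AMB6, 8.44 in AMB7, 8.12 in AMB9, 7.73 in AMB5, 5.88 in AMB3, 2.76 in AMB10 and 2.48 in AMB8. The 3 lowest libraries were those in which PTGS2 was lowest, and without them the highest level was 1.37 times the lowest. AKR1B1, an aldose reductase that can form prostaglandin F, ranged from 75.3 to 92.3 CPM, and PRXL2B, another such synthase, from 7.58 to 13.5 CPM. CBR1, a carbonyl reductase, had 43.0 CPM in AMB7, the lowest, and 68.4 CPM in AMB10, the highest. The thromboxane synthase TBXAS1 (0.598 to 1.43 CPM), the hematopoietic prostaglandin D synthase HPGDS (1.22 to 2.16 CPM) and PTGES3L (0.830 to 1.80 CPM) were low throughout, with 26 to 138 counts.

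Of the other receptors 3 of 7 passed the filter. PTGFR, the receptor of prostaglandin F, was at 9.55 CPM in AMB3, 6.52 in AMB10, 4.90 in AMB8, 3.91 in AMB6, 3.52 in AMB9, 3.08 in AMB7, 2.95 in AMB4 and 1.82 in AMB5. Like PTGER4 it was highest in AMB3, but AMB10 and AMB8 came next instead of last. Without AMB3, AMB8 and AMB10 the highest level of PTGFR was 2.15 times the lowest. PTGFRN, a protein that inhibits binding to that receptor, had its highest level in AMB9 (107 CPM) and its lowest in AMB8 (42.3 CPM). PTGDR2, a receptor of prostaglandin D2, ranged from 1.05 to 2.14 CPM. The other prostaglandin D2 receptor, PTGDR, had between 0 and 28 counts, with none in AMB5 and its highest level, 0.443 CPM, in AMB3. PTGER1 had at most 4 counts and none in AMB3, AMB5, AMB9 and AMB10, for an upper limit of 0.0754 CPM in AMB9, the shallowest. The prostacyclin receptor PTGIR had 5 to 34 counts and the thromboxane receptor TBXA2R 2 to 16.

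Transport and breakdown genes had a median range of 0.75, near the 0.77 of all genes. SLCO2A1, the prostaglandin uptake carrier, had its lowest level in AMB7 (11.2 CPM) and its highest in AMB10 (20.2 CPM), and ABCC4, an exporter, ranged from 9.34 to 14.3 CPM. SLCO3A1, a related carrier, ranged from 38.5 to 57.7 CPM. PTGR2, a reductase that acts after HPGD, ranged from 21.1 CPM in AMB9 to 35.5 in AMB10. ZADH2, another such reductase, was the only gene of the 5 whose range reached 1, against 36.1% of all genes. Its level ran from 36.4 CPM in AMB8 to 101 in AMB7.

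In the list of lipoxygenase and leukotriene genes, the range reached 1 in 8 of 10 genes tested, against 36.1% of all genes. Not all of these genes make leukotrienes, and the epoxide hydrolases EPHX1 and EPHX2 are among the 8. ALOX5, the entry enzyme to leukotrienes, was at 18.5 CPM in AMB5 and at 1.46 in AMB8. LTA4H, the next hydrolase, ranged from 36.6 to 56.6 CPM, and ALOX12B, a lipoxygenase of skin, from 10.1 to 20.1 CPM. The epoxide hydrolases EPHX1 and EPHX2 had their top level in AMB10, at 54.9 CPM for EPHX1 and 28.3 CPM for EPHX2, and their bottom level in AMB7, at 18.1 and 12.2 CPM.

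Of 21 signalling genes below the receptors, 4 reached a range of 1, against 36.1% of all genes, and the median was 0.55, against 0.77. ADCY1, a neuronal adenylyl cyclase, had the widest range, from 305 CPM in AMB8 to 1283 in AMB7, and it was at 452 CPM in AMB10 and 668 in AMB3. The catalytic subunit PRKACB of protein kinase A ranged from 464 to 677 CPM, its regulatory subunit PRKAR1A from 449.7 to 573 CPM, and GNAQ, a G protein that PTGFR uses, from 355 to 519.9 CPM.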

How the data were processed

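Total RNA of 8 libraries was sequenced. The deposited table gives, per the file headers, raw columns, which from their values hold estimated counts for each RefSeq gene, and normalized columns, which hold log2 values made by the authors. DESeq is named per the submitters' processing notes. The aligner, counter and genome build: not given in the sources used here. All 37053 gene IDs matched the RefSeq table of Panubis1.0, with 99.98% of starts equal.

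Estimated counts were rounded and scaled with TMM factors from edgeR 4.0.16 (R 4.3.3). Levels are CPM, and log2 CPM used a prior count of 2. Genes were filtered with filterByExpr (minimum count 10, groups unset), so that every library had to reach the minimum level. The range step was tested on simulated data. Alternatives were size factors from DESeq2 1.42.0, total counts, another prior count, unrounded counts, no filter, the deposited log2 values and each library left out.

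The genes and 22 lists (242 symbols, 232 with a row) were chosen with earlier results of these data known. Named genes were all members, synthases, receptors and transport genes, from each other list up to 4 of highest median CPM and the widest, and the 5 closest profiles of each member with a range of at least 1. Intervals do not cover differences between fetuses. Sequences were not used here, and 2 genes that the rule names are not reported here.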

Additional observations from a re-analysis of the deposited data

Results flagged for a closer look

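In 1 of the 10 genes a single library stood far from the other 7. PTGER2 was highest in AMB7, at 0.364 CPM, and the gap to the next library was 0.60 of the whole range, above the 95% critical value of 0.53 for 8 libraries (Dixon). Chance flags about 1 in 20 such groups, and the next highest libraries have 6 counts or fewer.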

How the results depend on the processing

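The number of members with a log2 range of at least 1 was 5 under every scaling, prior count and rounding tried, with the deposited log2 values and without each library in turn, and 6 with no filter, which adds PTGER2. Without AMB3, AMB8 and AMB10, an alternative chosen after seeing the data, it was 3. The number with a range of at least 2 was 2 to 3 without each library in turn, 4 with no filter and 1 without AMB3, AMB8 and AMB10. The number of other pathway genes with a range of at least 1 was 18, 16 to 19 without each library in turn, and 29 with no filter, where genes near 0 enter. It was 12 without AMB8 and AMB10, also chosen after seeing the data, for which the share of all genes was not counted. Without AMB3, AMB8 and AMB10 it was 13 of 36 tested, against 20.3% of all genes. The share of all genes thus fell too, from 36.1%. The cause of the lower counts was not tested. A range depends on the highest and lowest library only, so most settings that leave out another library could move it little. The limit used was the SD of the gene itself over libraries. By it, the PTGS2 range without AMB8 and AMB10 (3.91, from 5.16) counted as unmoved. Of 150 recomputed ranges of single members, 145 moved by less than 1 SD over libraries. The 5 others were PTGER2 without AMB7 (1.02) and in the deposited values (3.63), PTGER4 without AMB3 (1.83), and PTGER4 (0.95) and PTGS2 (0.99) without AMB3, AMB8 and AMB10. No paired analysis was possible because the labels give no groups. Depth limits PTGER2, PTGER1, PTGDR, PTGIR and TBXA2R, whose counts fell below the filter.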

Other observations

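ALOX15, a lipoxygenase gene chosen here after its values were seen, did not pass the filter yet reached 34.0 CPM in AMB10 (2435 counts) and 14.1 in AMB8. It was at 2.70 CPM in AMB4 and 2.46 in AMB3, and between 0.168 and 0.528 CPM in AMB5, AMB6, AMB7 and AMB9. The row LOC101004980, described as prostaglandin reductase 1, the gene of a symbol with no row, was at 5.31 CPM in AMB6 and 0.776 in AMB8, and between 1.84 and 3.2 CPM in the other libraries.

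Neither the smooth muscle genes, of which MYH11 was at 58.9 CPM in AMB4 and 0.453 in AMB9, nor the astrocyte genes, of which GFAP was at 1609.8 CPM in AMB10 and 551 in AMB7, had the order of libraries of PTGS2. The sum of 7 interneuron genes was lowest in AMB8 (317 CPM) and AMB10 (461 CPM) and 560.5 to 743 CPM in the other libraries, but single genes differed, and GAD2 was at 70.0 CPM in AMB8 and 105 CPM in AMB10. Of the excitatory neuron genes, CAMK2A was at 2356 CPM in AMB8 and 2254 CPM in AMB10 and at 897 to 1201 CPM elsewhere, whereas NRGN had its 3 lowest libraries in AMB3, AMB8 and AMB10. Red cell and leukocyte genes summed to 157 CPM in AMB9 and 41.4 in AMB8.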
